A study of Mus musculus with 22 samples.

Results

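H/ACA small nucleolar RNAs (snoRNAs) of 3 mouse cardiomyocyte samples at day 16 were compared directly with those of 3 embryonic stem cell (ESC) samples, here called set B. These 6 of the 22 samples in the series were taken by their titles, Cardiomyo1 to Cardiomyo3 and ESC1 to ESC3, and all 72 features of a custom nCounter code set were used. The cardiomyocytes came from ESCs labelled aMHC-puro that were differentiated through embryoid bodies and selected with puromycin. For ESCs the series design names the E14Tg2a line. The labels of set B conflict. Its titles and source name call the samples ESCs and no treatment is entered for them, while its descriptions read +RA T=6, and the protocol text speaks of retinoic acid given over 6 days. A companion set (set A, n = 3) carries the opposite conflict, with titles, source and treatment field naming RA and descriptions naming an untreated T=0 sample. Whether set B is the treated or the untreated set cannot be told from these fields, so it is called set B throughout. Set A and the aMHC-puro ESCs at day 0 (n = 3) served as the groups against which the compared groups were placed. The table holds snoRNAs only, so neither cardiac nor pluripotency markers could be examined, and no label states whether the replicates are independent cultures. The p-values therefore cover the spread among these particular samples, part of which may be technical.

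H/ACA snoRNAs fold into hairpins, bind dyskerin and its partner proteins, and guide the conversion of selected uridines to pseudouridine, chiefly in ribosomal RNA (rRNA). In mammals most are cut out of introns of host genes, many of which encode ribosomal proteins or translation factors, while the Snhg genes are non-coding hosts. A few members, such as Snora73a (also called U17), act in the cleavage of the rRNA precursor instead of guiding modification. The rRNA targets given here are those of the human snoRNAs of the same name. Of the 72 features, 34 have a gene symbol and all 34 lie within a host gene; the other 38 are known only by transcript ID.

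Signal is given as normalized counts, the deposited unit. Totals per sample were 1317794, 1137064 and 1173855 in cardiomyocyte samples 1 to 3, against 1668320, 1323727 and 1429521 in set B samples 1 to 3. Every cardiomyocyte total was thus below every set B total. Differences are in log2(value + 1) units, on the deposited scale and again after each sample's mean log2 value was subtracted (the centred scale). The mean log2 value ran from 12.03 to 12.43 in cardiomyocytes and from 12.31 to 12.99 in set B. Centring moved the median difference over the 72 features from -0.42 to -0.02, and no reference gene is in the table to say which scale is the better one.

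The members of the 2 groups did not form tight clusters. Distances and SDs in this paragraph are on the deposited scale unless stated. Cardiomyocyte sample 1 lay nearer to set A and the day 0 ESCs than to its own group. Its root-mean-square log2 distance over the 72 features was 0.514 to the mean of set A, 0.619 to that of the day 0 ESCs, 0.865 to the mean of the other cardiomyocytes and 0.923 to that of set B. Its nearest sample among the 12 was set A sample 1, at 0.506. Cardiomyocyte sample 2 had set B sample 2 as its nearest sample, at 0.585. It was no farther from the mean of set B (0.791) than from the other cardiomyocytes (0.823). After centring these distances were 0.506 and 0.759, so it was then nearer to set B. Set B sample 2 was nearer to the mean of the cardiomyocytes (0.763) than to the rest of its own group (0.854), but not after centring (0.76 against 0.7). Set B sample 1 was 0.917 from the mean of its own group, although set B sample 3 was its nearest neighbour at 0.739. Compared feature by feature, cardiomyocyte sample 1 was closer to the set B mean than to the day 0 mean in 32 of 72 features, sample 2 in 49 and sample 3 in 41. The median SD between samples was 0.376 log2 units in cardiomyocytes and 0.262 in set B, against 0.131 in set A and 0.212 in day 0 ESCs. The results below are therefore also given without cardiomyocyte sample 1, or without it and set B sample 1, where that moves them.

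**Figure D1:**
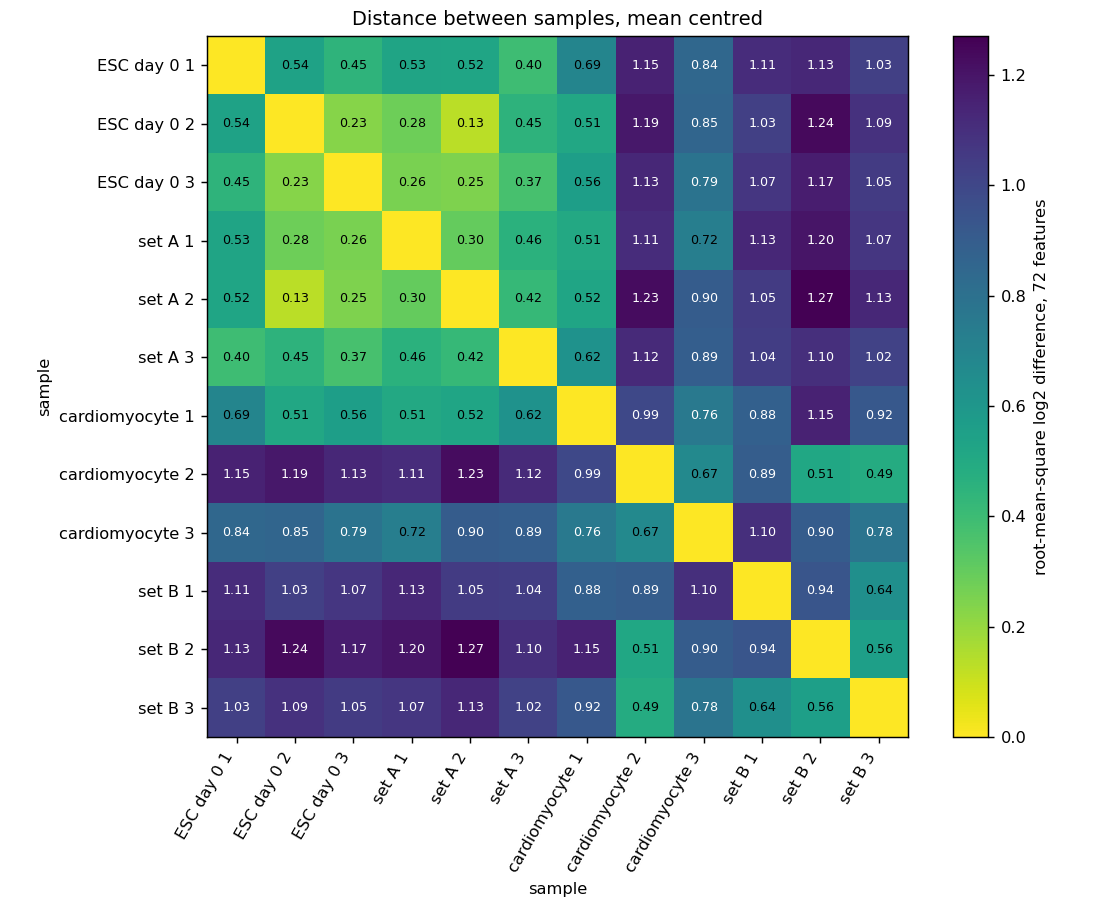
Root-mean-square log2 distance over 72 features between each pair of the 12 samples, on the centred scale, coloured from near to far. Cardiomyocyte sample 1 lies 0.505 from set A sample 1, while cardiomyocyte sample 2 lies 0.488 from set B sample 3 and 0.512 from set B sample 2.

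As groups, cardiomyocytes and set B were nearer to each other than either was to the day 0 ESCs. The distance between their means was 0.722, against 0.868 from cardiomyocytes to day 0 and 0.996 from set B to day 0; after centring the 3 distances were 0.603, 0.713 and 0.991. Of the single cardiomyocyte samples, only sample 2 was nearer to the mean of set B than to that of day 0 after centring (0.506 against 1.13). Sample 1 (0.9 against 0.539) and sample 3 (0.835 against 0.792) were then nearer to day 0. On the deposited scale sample 3 was about as far from both (0.916 and 0.923). From cardiomyocytes to set A the distance was 0.772 (0.713 after centring). Set A lay 0.259 from day 0 (0.168 after centring). Among the ESC and cardiomyocyte groups, cardiomyocytes and set B are the farthest from day 0. Over the 67 features measured in the whole series, the spermatogonial stem cells were farther (1.06), and after centring RAW264.7 macrophages (0.739) were about as far as cardiomyocytes (0.733).

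In the direct comparison 8 features were lower in cardiomyocytes without overlap on both scales, 6 with a symbol and 2 known only by ID. Snora3, Snora41, Snora36b, Snora2b, Snora31 and Snora34 were lower in all 3 cardiomyocyte samples than in all 3 set B samples on both scales. The 6 were singled out after their values were seen. Their mean levels were 2.20 to 3.01 times lower on the deposited scale, and none passed the adjusted threshold when the 6 samples were fitted alone. In the other direction, 7 features were higher without overlap on the centred scale. Snora43 and Snora52 are the 2 with a symbol, and ENSMUST00000082448.1 was the 1 also higher on the deposited scale. The others include features of low level, with mean counts of 52.0 and 24.7 in cardiomyocytes against 18.6 and 16.8 in set B.

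Over all features, limma called 0 of 72 (0%) on the deposited scale at a Benjamini-Hochberg adjusted p under 0.05, with a smallest adjusted p of 0.0919. At an unadjusted p under 0.05 it found 22 (30.6%), all lower in cardiomyocytes. On the centred scale it called 0 (0%), with a smallest adjusted p of 0.163, and 12 features (16.7%) passed unadjusted, 6 higher and 6 lower. The samples of the groups did not overlap in 33 features (45.8%) on the deposited scale, 1 higher (1.39%) and 32 lower (44.4%) in cardiomyocytes, and in 15 (20.8%) on the centred scale, 7 higher (9.72%) and 8 lower (11.1%). Centring sets the mean of each sample to 0, so it fixes the balance of signs in part by construction. These counts do not show that the groups are alike, because the 95% interval of a difference reached a median of 0.73 log2 units to either side on the deposited scale and 0.81 on the centred scale. It lay wholly within a 2-fold difference for 21 and 23 features.

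Samples of the same title number deviated alike from their group means (r of 0.68, 0.439 and 0.38 across features for numbers 1, 2 and 3). Cardiomyocyte sample 3 and set B sample 2, both numbered 4 in their descriptions, were nearly as alike (0.318). The other pairs of unlike title number had negative values, from -0.609 to -0.0157. No label gives this pairing. It was taken from these same values, so a fit blocked on it gives no separate support. With the title number as a block, 9 features (12.5%) passed on the deposited scale, all lower in cardiomyocytes, and 0 on the centred scale. The 5 with a symbol were Snora3, Snora31, Snora41, Snora34 and Snora2b, each with an adjusted p of 0.0219 in limma. When the 12 samples of the 4 groups shared an estimate of the spread, 18 features (25%) passed on the deposited scale, all lower, and 9 (12.5%) on the centred scale, 5 higher and 4 lower. The 5 higher include the features of low level described above. The 4 lower on the centred scale were Snora3, Snora31, Snora34 and Snora2b. On the deposited scale these 4 passed in both the blocked and the shared fit. They are among the snoRNAs singled out after their values were seen. The shared estimate also draws on set A and day 0, whose median SDs on the deposited scale were 0.131 and 0.212. Those of cardiomyocytes and set B were 0.376 and 0.262, so it can understate the spread of the compared groups. After centring the median SDs were 0.155 in set A and 0.195 in day 0, against 0.432 in cardiomyocytes and 0.401 in set B.

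**Figure D2:**
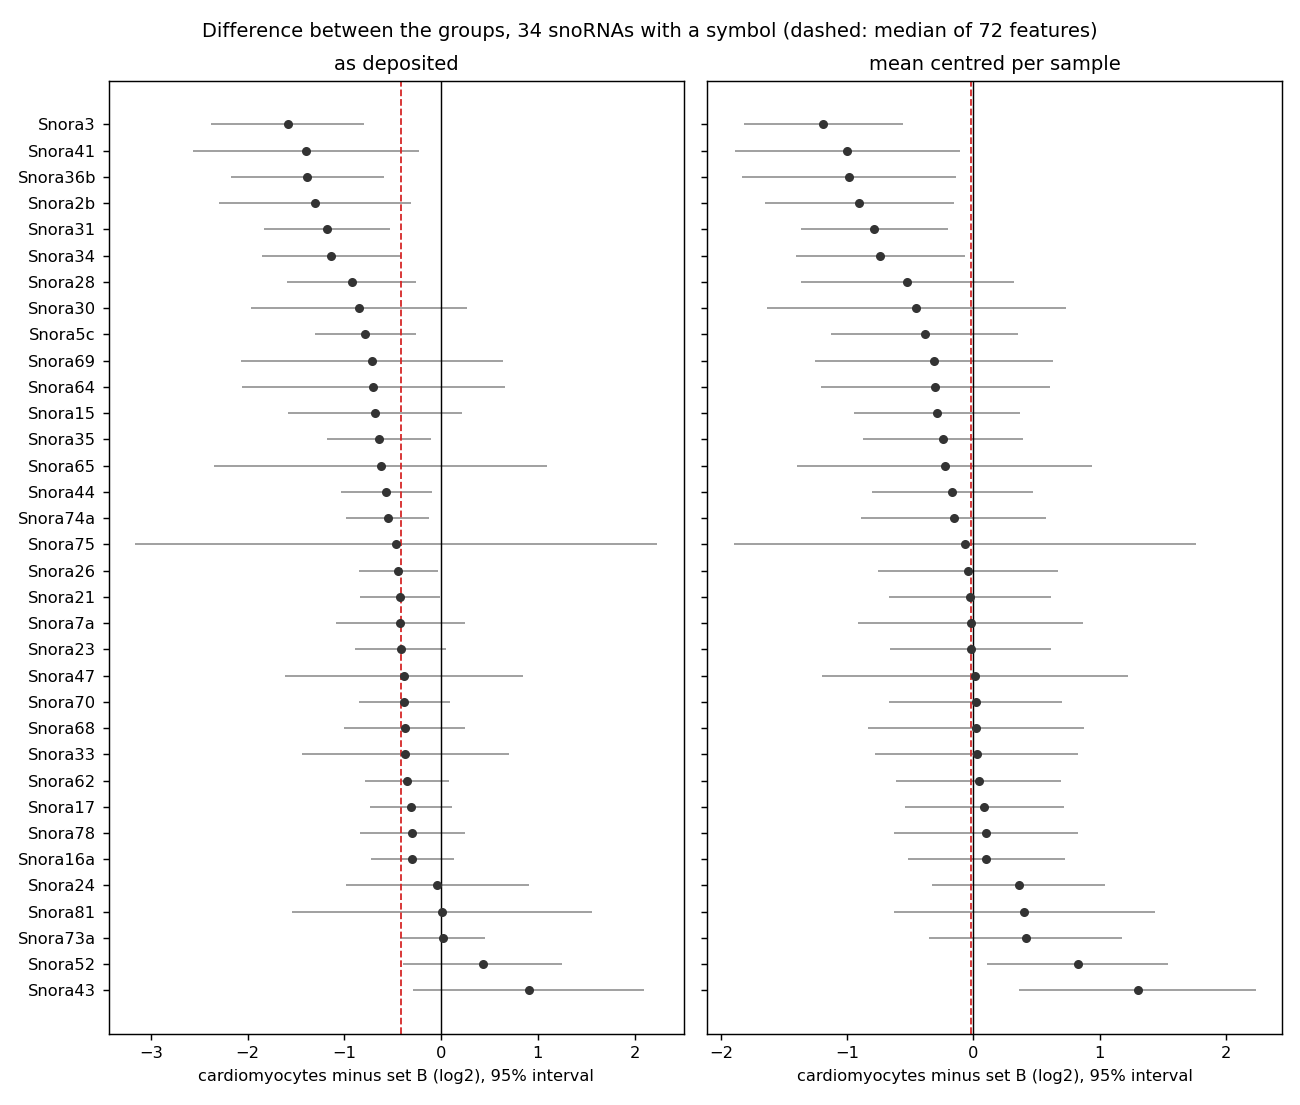
Difference of cardiomyocytes minus set B (log2) for the 34 snoRNAs with a symbol, with its 95% interval, on the deposited and on the centred scale. Most deposited differences lie below 0, from -1.59 for Snora3 to 0.90 for Snora43, and no difference passes after adjustment over the 72 features.

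Snora3, from an intron of the ribosomal protein gene Rpl27a, had the largest deposited difference of the snoRNAs with a symbol. Its normalized counts were 9928, 6829 and 6291 in cardiomyocyte samples 1 to 3 and 31886, 16213 and 22438 in set B samples 1 to 3. Every cardiomyocyte sample was below every set B sample, and also below the day 0 ESCs (29535, 15637 and 14654). The difference was -1.59 ± 0.32 (SE, n = 3 and 3; limma adjusted p = 0.0919) on the deposited scale and -1.19 ± 0.28 (adjusted p = 0.163) after centring. Set A overlapped with cardiomyocytes, at 9408, 14735 and 23510.

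Kansl2, which encodes a subunit of a chromatin acetyltransferase complex, hosts both Snora2b and Snora34, whose human namesakes guide sites in 28S rRNA. Snora34 had 5895, 4805 and 3902 normalized counts in the cardiomyocyte samples and 14950, 9350 and 8393 in set B. Snora2b had 4589, 3292 and 2606 in cardiomyocytes and 14489, 6283 and 6476 in set B. The groups do not overlap for either, and set B sample 1 is the highest of the 6 in both cases. The deposited difference was -1.14 ± 0.29 for Snora34 and -1.30 ± 0.41 for Snora2b (SE; limma adjusted p = 0.0919 and 0.117). Without cardiomyocyte sample 1 and set B sample 1 they were -1.03 and -1.12.

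Translation genes host 4 of the measured snoRNAs, and 2 of them belong to the 6. Snora31 lies in Tpt1, which encodes an abundant growth-related protein, and Snora41 in Eef1b2, which encodes an elongation factor subunit. Snora31 had 16553, 12516 and 15942 normalized counts in cardiomyocytes and 45659, 26138 and 32471 in set B, with no overlap and a difference of -1.18 ± 0.27 (SE; limma adjusted p = 0.0919). Snora41 had 4372, 2927 and 1704 in cardiomyocytes and 12614, 5719 and 5529 in set B, a difference of -1.40 ± 0.48 (adjusted p = 0.126). Snora28, from the initiation factor gene Eif5, was lower on the deposited scale without overlap (27751, 50224 and 34204 against 79405, 67763 and 60468 counts). Its centred difference was -0.53, with an interval from -1.37 to 0.32, and the centred samples overlapped. Snora81, from Eif4a2, had overlapping groups on both scales and a deposited difference of 0.01.

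Snora36b lies in Rab3gap2, and its human namesake guides a site in 18S rRNA. It had 286, 548 and 328 normalized counts in cardiomyocytes and 1257, 771 and 946 in set B, while the 6 samples of day 0 and set A had 233 to 347. On the deposited scale set B thus lay above those 6 samples, and cardiomyocyte samples 1 and 3 lay within their range. After centring, the cardiomyocyte samples also lay above all day 0 samples, with a difference of 0.85 (limma adjusted p = 0.165), and set B minus set A was 1.72 (adjusted p = 0.0002). The difference from set B was -1.38 ± 0.32 on the deposited scale (SE; limma adjusted p = 0.0919) and -0.99 ± 0.37 after centring. Without cardiomyocyte sample 2 it was -1.66 and passed (adjusted p = 0.0344), as it did on the centred scale (-1.37, adjusted p = 0.0433). Of the cardiomyocytes, sample 2 had the Snora36b count nearest to set B, so leaving it out favours such a call.

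**Figure D3:**
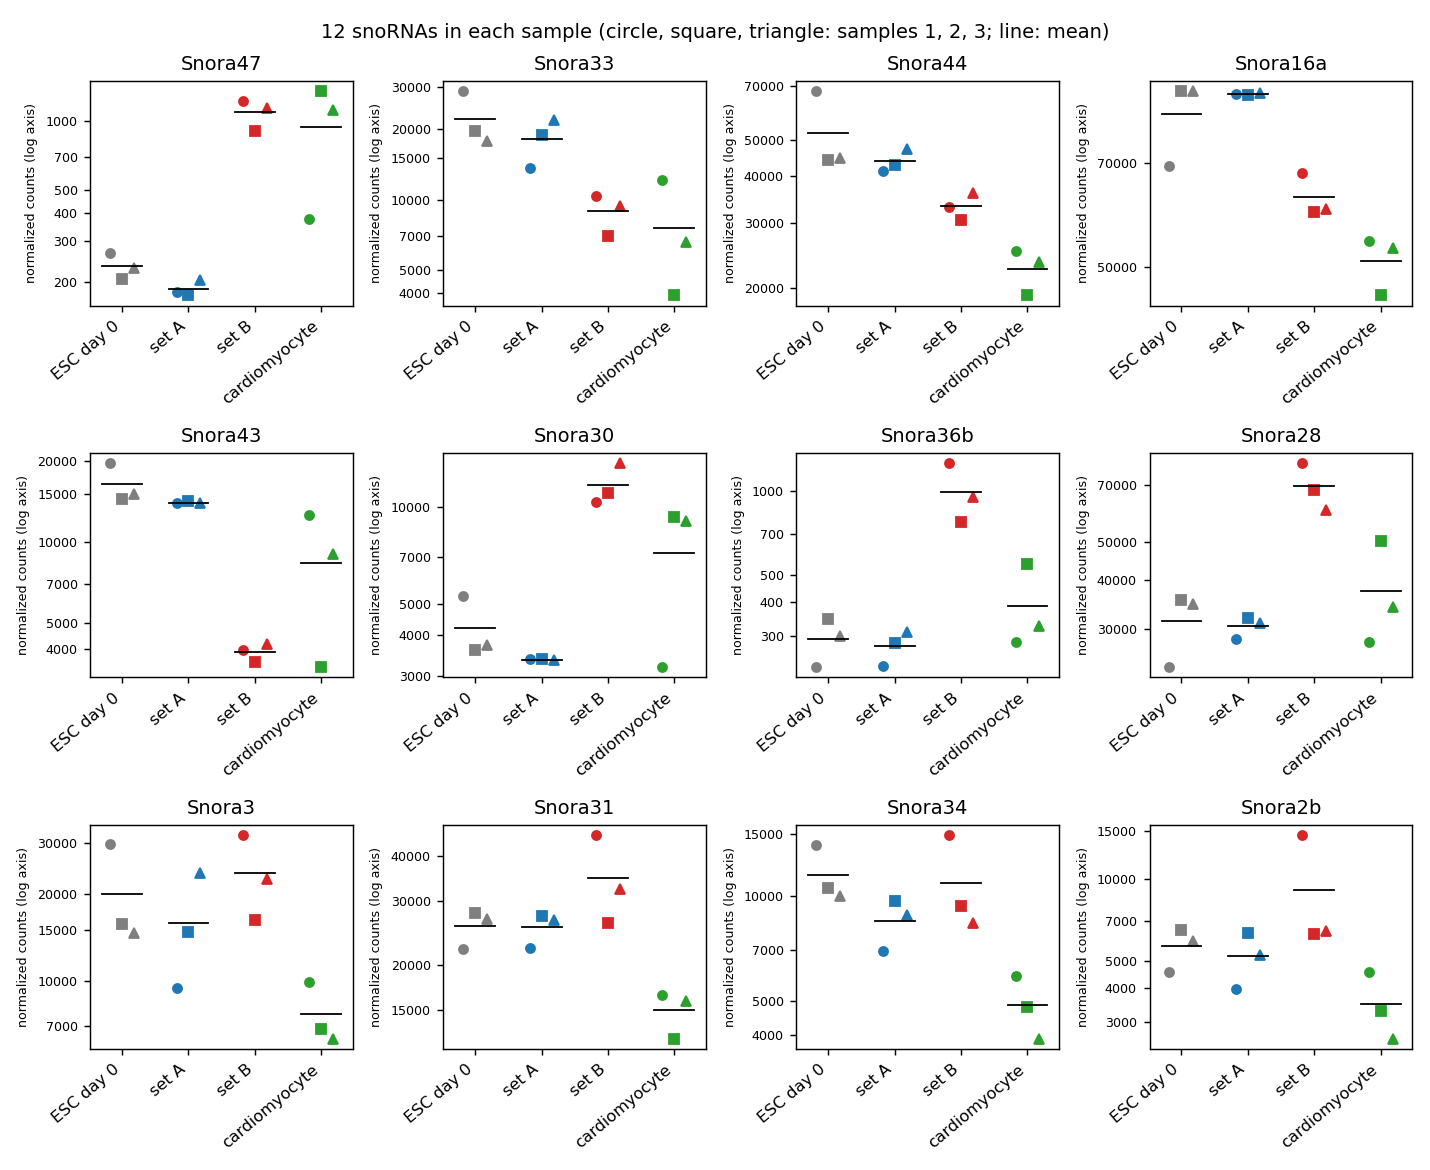
Normalized counts (log axis) of 12 snoRNAs in each of the 12 samples; a line marks the group mean and the marker shape the sample number. For Snora3, Snora31, Snora34 and Snora2b the cardiomyocyte samples lie below all set B samples, and for Snora43 and Snora30 cardiomyocyte sample 1 lies with set A and the day 0 ESCs.

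Snora43 and Snora52 went the other way. Both passed as higher on the centred scale when the 12 samples shared an estimate of the spread (limma adjusted p = 0.0402 and 0.0463). On the deposited scale of that fit neither passed (limma adjusted p = 0.0833 and 0.201). Snora43, from the non-coding host Snhg7, guides a 28S site in its human form. It had 12592, 3423 and 8986 normalized counts in cardiomyocytes and 3960, 3584 and 4161 in set B. Cardiomyocyte sample 2 was the lowest of the 6, so the groups overlapped on the deposited scale, where the difference was 0.90 ± 0.49 (SE; limma adjusted p = 0.220). After centring they did not overlap, and the difference was 1.30 ± 0.41 (adjusted p = 0.193). Without cardiomyocyte sample 2 the difference was 1.45 (adjusted p = 0.0344), and 1.74 after centring (adjusted p = 0.0191). Without cardiomyocyte sample 1 it was 0.51 (adjusted p = 0.440), and 1.00 after centring (adjusted p = 0.284). Snora52, from the ribosomal protein gene Rplp2, had 21386, 9229 and 16553 counts in cardiomyocytes against 11717, 9861 and 11598 in set B. Its difference was 0.43 ± 0.34 on the deposited scale and 0.83 ± 0.32 after centring. Without cardiomyocyte sample 1 it was 0.16 (limma adjusted p = 0.717), and 0.66 after centring (adjusted p = 0.406). Both snoRNAs had their lowest cardiomyocyte value in sample 2, the sample nearest to set B. Leaving sample 2 out therefore favours a larger difference in both.

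Of the features known only by ID, ENSMUST00000083331.1 had the largest difference in this direction. It had 12414, 1742 and 6183 normalized counts in cardiomyocytes and 1862, 1930 and 1285 in set B, so cardiomyocyte sample 2 lay inside the set B range. The deposited difference was 1.62 ± 0.71 (SE; limma adjusted p = 0.181). Without cardiomyocyte sample 2 it was 2.39 and passed (adjusted p = 0.0344), while without cardiomyocyte sample 1 it was 0.98 (adjusted p = 0.324). Leaving out sample 2, the cardiomyocyte sample nearest to set B here, favours such a call. ENSMUST00000083719.1 had the largest lower difference among IDs that passed in both the blocked and the shared fit, with 1336, 1964 and 1439 counts in cardiomyocytes and 3274, 3565 and 3625 in set B. Its difference was -1.16 ± 0.21 (adjusted p = 0.0919). ENSMUST00000082448.1 alone was higher without overlap on both scales, at 191011, 196362 and 171906 against 137147, 161650 and 158136 counts.

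Grouped by host gene, none of the snoRNAs passed in the 6-sample fit, so the groups are described by their sign and median. The median over all 72 features was -0.42 on the deposited and -0.02 on the centred scale. Of those 72 differences, 57 were negative on the deposited scale and 37 after centring. Among the 12 hosted in ribosomal protein genes, 11 had a negative deposited difference (median -0.40), but after centring 6 were positive and 6 negative. Of the 8 in non-coding hosts, 6 were negative (median -0.30), and 3 after centring (median 0.09). All 10 in other protein-coding hosts were negative (median -0.73), 9 of them also after centring (median -0.34). Of the 4 in translation genes, 3 were negative on both scales (medians -1.05 and -0.66). Grouped by target, the 7 measured of 20 listed guides of 18S rRNA were all negative (median -0.69), and 5 of 7 after centring (median -0.29). Of the 16 measured of 24 listed guides of 28S rRNA, 13 were negative (median -0.42), and 9 after centring (median -0.02).

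The single guide of 5.8S rRNA, Snora69 from Rpl39, was too variable in set B to place: its counts were 14004, 9671 and 6461 in cardiomyocytes and 33262, 8880 and 12995 in set B. The groups overlap, and the interval of the difference ran from -2.06 to 0.64. Snora64, from Rps2, was alike in this respect, at 14371, 6887 and 6576 against 28866, 8099 and 11971 counts, and its interval ran from -2.06 to 0.66. Of the 2 precursor-processing snoRNAs, Snora73a from Snhg3 had 133185, 132112 and 128105 counts in cardiomyocytes and 110526, 139911 and 141084 in set B. Its groups overlap, and its difference was 0.02 with an interval from -0.43 to 0.46 on the deposited scale, and 0.41 after centring. Snora74a from Snhg4 had 33689, 35788 and 36438 counts against 46618, 50906 and 58633. These do not overlap, but they do after centring, and the difference was -0.55 on the deposited and -0.16 on the centred scale.

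The 8 snoRNAs with the smallest centred differences among the more abundant features with a symbol were Snora70, Snora68, Snora7a, Snora21, Snora26, Snora75, Snora17 and Snora16a. They were chosen for lying near 0 after centring, so their small differences are a description of that scale. On the deposited scale Snora70, Snora21, Snora26, Snora17 and Snora16a were lower in cardiomyocytes without overlap, by -0.38, -0.42, -0.44, -0.31 and -0.30. The samples of Snora68, Snora7a and Snora75 overlapped there. After centring, Snora21, from Rpl23, differed by -0.03 (interval -0.67 to 0.62). Snora70, from Rpl10, differed by 0.02 (-0.67 to 0.70) and Snora16a, from Snhg12, by 0.10 (-0.52 to 0.72). Snora75, from the nucleolin gene Ncl, differed by -0.07; its counts were 16952, 2840 and 5640 in cardiomyocytes and 33612, 2332 and 9133 in set B. Sample 1 was the highest and sample 2 the lowest in both groups. Its centred interval ran from -1.90 to 1.76 without the replicate block, and from -0.77 to 0.63 with it.

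What the groups shared was read from 2 differences with no sample in common, cardiomyocytes minus day 0 ESCs and set B minus set A. Set A is a companion set, and the labels do not establish it as an untreated baseline. On the deposited scale Snora47 was higher in both, and Snora33, Snora44 and Snora16a were lower in both. Cardiomyocytes had 22 called features (30.6%) on the deposited scale, 1 higher (1.39%) and 21 lower (29.2%), and set B had 33 (45.8%), 21 higher (29.2%) and 12 lower (16.7%). The 6 called in the same direction (8.33%) are 27.3% of the cardiomyocyte calls and 18.2% of the set B calls, and 0 were called in opposite directions. On the centred scale cardiomyocytes had 0 calls (0%), 22 (30.6%) at an unadjusted p under 0.05, and set B 25 (34.7%), so none was shared. These shared calls rest on single samples, as do the calls they are drawn from. The cardiomyocyte calls on the deposited scale numbered 34 without cardiomyocyte sample 1, 7 without sample 2, and 0 without sample 3 or without any of the 3 day 0 samples. On the centred scale there were 21 without cardiomyocyte sample 1. The set B calls numbered 18, 17 and 21 without set A sample 1, 2 and 3. For the shared calls, leaving out samples gave the following. Without cardiomyocyte sample 1 there were 13 (18.1%) on each scale, and without it and set B sample 1 there were 18 (25%) on each. Cardiomyocyte sample 1 was singled out for lying near set A and day 0, so these larger counts follow in part from that choice. Without cardiomyocyte sample 3, or without any of the 3 day 0 samples, there were 0 on the deposited scale; without cardiomyocyte sample 2 there were 2, without set B sample 1 there were 11, and without set A sample 2 or 3 there were 3.

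Snora47, hosted by Zbed3, was the only feature called higher in both. It had 375, 1343 and 1113 normalized counts in cardiomyocytes against 268, 206 and 229 at day 0, and 1220, 907 and 1134 in set B against 181, 175 and 203 in set A. All 6 samples of the compared groups lay above all 6 samples of day 0 and set A, with cardiomyocyte sample 1 the nearest to them. It rose by 1.82 ± 0.48 from day 0 to cardiomyocytes (SE; limma adjusted p = 0.0336), and was 2.53 ± 0.15 higher in set B than in set A (adjusted p = 0.00013). After centring these were 2.31 (adjusted p = 0.0639) and 2.43 (adjusted p = 7.27e-05). Between cardiomyocytes and set B it differed by -0.39, and by 0.18 without cardiomyocyte sample 1, so no direction can be given there.

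Snora33, a 28S guide from Rps12, had 12124, 3907 and 6582 normalized counts in cardiomyocytes against 28899, 19584 and 17770 at day 0. In set B it had 10329, 6984 and 9371 against 13676, 18873 and 21709 in set A. It fell by 1.67 ± 0.43 from day 0 to cardiomyocytes, and set B minus set A was -1.02 ± 0.24 (SE; limma adjusted p = 0.0327 and 0.0193). After centring these differences were -1.18 and -1.12 (adjusted p = 0.0644 and 0.00405). Cardiomyocytes and set B overlapped, and differed by -0.37 on the deposited scale and 0.03 after centring.

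Snhg12 hosts both Snora44, an 18S guide, and Snora16a, a 28S guide. Snora44 had 25082, 19084 and 23430 normalized counts in cardiomyocytes, 32954, 30564 and 36065 in set B, and 41312 to 67739 over the 6 samples of day 0 and set A. It fell by 1.19 ± 0.24 from day 0 to cardiomyocytes, and set B minus set A was -0.40 ± 0.11 (SE; limma adjusted p = 0.026 and 0.0346). After centring the differences were -0.70 and -0.50 (adjusted p = 0.0644 and 0.125). Snora16a had 54314, 45589 and 53147 counts in cardiomyocytes, 67657, 59684 and 60336 in set B, and 69234 to 88160 in day 0 and set A. It fell by 0.68 ± 0.19 from day 0 to cardiomyocytes, and set B minus set A was -0.48 ± 0.10 (limma adjusted p = 0.038 and 0.0117). After centring the differences were -0.18 and -0.58 (adjusted p = 0.560 and 0.0724), and cardiomyocytes overlapped with day 0. For both snoRNAs day 0 and set A were highest, set B lay between and cardiomyocytes were lowest, without overlap on the deposited scale; centred cardiomyocyte and set B samples did overlap.

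**Figure D4:**
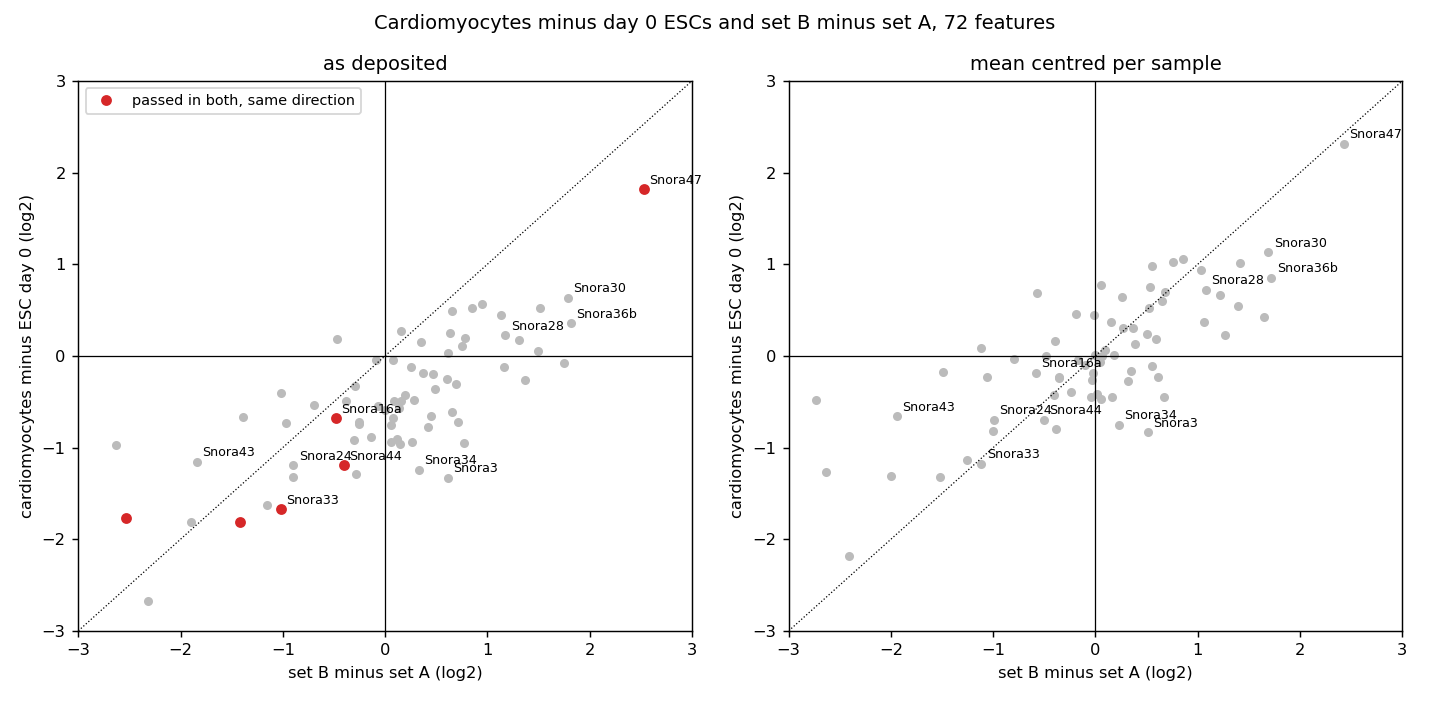
Difference of cardiomyocytes from day 0 ESCs against difference of set B from set A for the 72 features (log2), on the deposited scale at left and the centred scale at right, with the features called in both differences in red and equality dotted. Points run along a rising band, and Snora47 sits at the upper right, on the deposited scale at 2.53 for set B and 1.82 for cardiomyocytes.

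Across the 72 features the 2 differences went together, with a Pearson r of 0.764 and a Spearman rho of 0.708 over features, which are not independent replicates. Centring shifts each difference by a constant, so both coefficients are the same on the 2 scales by construction. Leaving out both cardiomyocyte sample 1 and set B sample 1 gave an r of 0.841. Picking cardiomyocyte sample 1 for lying near the ESC groups favours such a rise. The sign was the same in 43 features on the deposited scale and in 55 after centring. A plainer count, of features in which all 6 cardiomyocyte and set B samples lay beyond all 6 samples of day 0 and set A, gave 15 (20.8%) on the deposited scale, 4 higher and 11 lower. After centring it gave 10 (13.9%), 2 higher and 8 lower. Snora47 was among the higher, and Snora33 and Snora44 among the lower, on both scales. Snora43 was among the lower on the deposited scale: the 12592 counts of cardiomyocyte sample 1 lay just under the lowest sample of day 0 and set A, at 13893.

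Snora30, a 28S guide hosted by Srcap, joined the shared calls on both scales when cardiomyocyte sample 1 was left out, an omission that favours such calls. It had 3185, 9368 and 9047 normalized counts in cardiomyocytes, 10392, 11059 and 13743 in set B, and 3352 to 5313 in day 0 and set A. Cardiomyocyte samples 2 and 3 were thus close to set B, and sample 1 was below every day 0 and set A sample. Set B minus set A was 1.79 ± 0.13 (SE; limma adjusted p = 0.000292), while the cardiomyocyte difference from day 0 was 0.64 ± 0.45 (adjusted p = 0.300). The difference between cardiomyocytes and set B was -0.85 ± 0.46, and -0.34 without cardiomyocyte sample 1.

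The 2 differences, cardiomyocytes minus day 0 and set B minus set A, were also tested against each other. On the deposited scale 17 of 72 features (23.6%) passed, all more negative in cardiomyocytes, and 9 of these have a symbol: Snora3, Snora34, Snora36b, Snora31, Snora5c, Snora35, Snora74a, Snora21 and Snora62. The median over all features was -0.64, so most of the table leaned the same way, and on the centred scale 0 (0%) passed in limma, with 10 (13.9%) at an unadjusted p under 0.05, and 6 passed there without cardiomyocyte sample 2. Snora3 had the largest value, -1.94 ± 0.56 (SE; limma adjusted p = 0.0355). It fell by 1.33 ± 0.34 from day 0 to cardiomyocytes (adjusted p = 0.0324), while set B minus set A was 0.61 ± 0.41 (adjusted p = 0.290). Snora34 gave -1.57 ± 0.36 (adjusted p = 0.0239), from a fall of 1.24 ± 0.23 in cardiomyocytes (adjusted p = 0.026) and a set B difference of 0.33 ± 0.26. Snora35, which lies in Htr2c, holds only 19.9 to 43.0 normalized counts in the 12 samples and passed by -0.82. Without cardiomyocyte sample 1 and set B sample 1 the count was 5. It was 1 without day 0 sample 2, set A sample 1 or set A sample 2, 4 without set B sample 1, 5 without day 0 sample 3, 7 without day 0 sample 1, 8 without set B sample 3 and 10 without set A sample 3.

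SnoRNAs of the same host allow a comparison that no scaling between samples can move, since a log2 ratio of 2 snoRNAs is taken within each sample. There are 4 such pairs. Promoters of 2 hosts are shown as examples. The snoRNAs of Kansl2 differed from set B by about the same amount. The ratio of those of Snhg7 did not overlap between the groups, as was also so for Snhg12. Any link of the promoter sequences to these differences was not tested. The sequences are from RefSeq, build GRCm38.p6, and run from 250 bases before the annotated start to 50 after it. Kansl2 is at chr15:98534220-98534519 and Snhg7 at chr2:26640195-26640494, both on the minus strand, and capitals mark CCAAT and TATAAA, searched on both strands.

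Kansl2: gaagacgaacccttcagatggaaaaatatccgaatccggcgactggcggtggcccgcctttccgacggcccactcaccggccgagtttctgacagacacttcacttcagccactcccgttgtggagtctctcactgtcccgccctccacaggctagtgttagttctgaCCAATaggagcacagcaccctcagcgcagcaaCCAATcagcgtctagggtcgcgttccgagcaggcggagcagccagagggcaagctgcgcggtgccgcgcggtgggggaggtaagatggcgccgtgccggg

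Snhg7: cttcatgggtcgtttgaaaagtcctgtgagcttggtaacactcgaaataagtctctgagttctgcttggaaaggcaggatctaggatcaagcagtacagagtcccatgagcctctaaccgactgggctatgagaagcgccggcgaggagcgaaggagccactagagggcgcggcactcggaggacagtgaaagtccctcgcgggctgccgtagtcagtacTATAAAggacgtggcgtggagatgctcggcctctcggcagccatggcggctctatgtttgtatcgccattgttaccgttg

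The Kansl2 window holds 2 CCAAT motifs, which begin 82 and 50 bases before the start, and the Snhg7 window a TATAAA that begins 30 bases before it. Of 32851 RefSeq promoter windows of this length, 37.4% hold CCAAT and 13.6% TATAAA on either strand, and these matches are a description of the letters alone.

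For Snhg7, the log2 ratio of Snora17 to Snora43 was 0.82, 2.62 and 1.45 in cardiomyocyte samples 1 to 3 and 2.92, 2.83 and 2.79 in set B. All cardiomyocyte samples were below all set B samples, and sample 2 came nearest. The ratios were 0.84, 1.12 and 1.10 at day 0 and 1.04, 1.06 and 1.11 in set A, so cardiomyocyte sample 1 was at their level and set B was far above it. The difference between cardiomyocytes and set B was -1.21. An exact two-sided permutation test gave p = 0.10, the smallest that 3 against 3 allows, and 0.20 after adjustment over the 4 pairs. Snora17 itself, a 28S guide by its human form, had a centred difference of 0.09 (interval -0.55 to 0.72). On the deposited scale its difference was -0.31, and its cardiomyocyte samples were lower without overlap.

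For Snhg12, the ratio of Snora16a to Snora44 was 1.11, 1.26 and 1.18 in cardiomyocytes and 1.04, 0.97 and 0.74 in set B, without overlap. The difference was 0.27 (exact permutation p = 0.10, adjusted p = 0.20). In day 0 and set A, day 0 sample 1 stood apart at 0.03, with the others at 0.89 to 1.08. For Kansl2, the ratio of Snora2b to Snora34 was -0.36, -0.55 and -0.58 in cardiomyocytes and -0.05, -0.57 and -0.37 in set B, which overlap (difference -0.17, exact permutation p = 0.60). For Rps2, the ratio of Snora64 to Snora78 was 2.02, 1.26 and 0.84 against 3.02, 1.09 and 1.22, also overlapping (difference -0.40, exact permutation p = 0.70). Snora78 also lies in Snhg9, so its host is not settled.

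**Figure D5:**
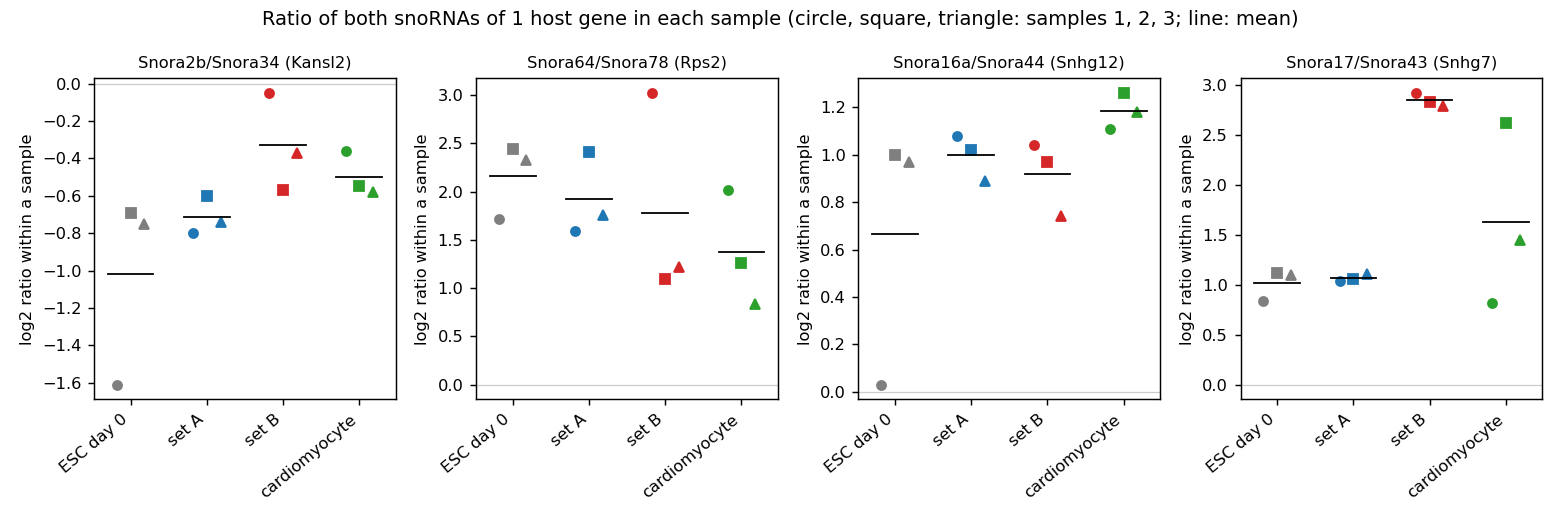
Log2 ratio of 2 snoRNAs from the same host gene in each of the 12 samples, for the 4 host genes, with lines at group means. The Snhg7 ratio of set B, 2.79 to 2.92, lies above that of every other sample, and cardiomyocyte sample 2 follows at 2.62.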

How the data were processed

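A custom nCounter assay, an instrument that counts colour-coded probes without amplification, was read for 72 features in total RNA. The signal values deposited by the authors are normalized counts; the sources used here do not state the normalization, the software or the background treatment. Through the RefSeq table of GRCm38.p6, 34 features received a symbol; host genes come from the same table. Probes for near-identical copies may capture each other's RNA.

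Values were analysed as log2(value + 1), as deposited and centred on each sample's mean, with limma 3.58.1 in R 4.3.3 (lmFit and eBayes on the groups compared, two-sided, Benjamini-Hochberg over 72 features, threshold 0.05). Fitting was tested on simulated data with independent samples and, for each feature, the same spread in every group. The real groups differ in spread, so that test does not cover this condition. Totals run from 1137064 to 1668320 normalized counts in the 6 samples. Ratios within a host were compared by exact permutation over samples.

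Most named snoRNAs are those called, shared, or called in the difference of differences, the 8 with a symbol nearest to 0 after centring above the median level, and 10 chosen by name. Snora2b, Snora41 and Snora52 fell outside these rules and were named for groups without overlap, after their values were seen. Snora81 and Snora78 also fell outside them and were named as members of a host group or host pair. For IDs, the rule allowed at most 2 higher and 2 lower among those called in the direct fit; it called none, so the 3 IDs named were chosen after their values were seen. The members, lists and tests were chosen with earlier results of these data known. The pairing by title number was taken from the correlation of deviations, since no label gives it (cardiomyocytes with day 0: -0.237, -0.27 and 0.143; set B with set A: -0.364, -0.628 and -0.161, so not paired). By the numbers in the descriptions, set B with set A gave -0.364, 0.328 and -0.349 for numbers 1, 4 and 3. Alternatives were other centring, pseudocount 10, a minimum mean of 100, other fits, blocks, and leaving out samples.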

Additional observations from a re-analysis of the deposited data

Results flagged for a closer look

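The following values were singled out because the difference of cardiomyocytes from day 0 ESCs and that of set B from set A differed in a limma contrast over 12 samples (adjusted p under 0.05, deposited scale). All are log2 values, more negative in cardiomyocytes. Snora3 had -1.94, Snora34 -1.57, Snora36b -1.46, Snora31 -1.19 and Snora5c -1.11. Snora35 had -0.82, Snora74a -0.75, Snora21 -0.62 and Snora62 -0.59. The 8 features known only by ID had -1.82, -1.44, -1.26, -1.14, -1.11, -1.0, -1.0 and -0.85. On the centred scale 0 of the 72 passed with all samples, at a smallest adjusted p of 0.162, and 6 passed without cardiomyocyte sample 2. The centred values were -1.35 for Snora3, -0.98 for Snora34, -0.87 for Snora36b, -0.60 for Snora31, -0.51 for Snora5c, -0.22 for Snora35, -0.16 for Snora74a and -0.03 for Snora21, and 0.0016 for Snora62. The totals of the cardiomyocyte samples were below those of set B, and their part in these values was not tested. The formal test for a single outlying sample was not applied to groups of 3.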

How the results depend on the processing

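Counts of features called moved with several choices, and the cause was not tested. Cardiomyocytes minus set B gave 0 on each scale, but on the deposited scale 9 with the replicate block from the title and 18 with 12 samples in the fit, and on the centred scale 9 with 12 samples and 1 after quantile normalization (0 to 4 on each scale with a sample left out). Non-overlapping features ran from 35 to 43 (deposited) and 18 to 26 (centred, 26 without cardiomyocyte sample 2 and 23 without set B sample 1) with a sample left out, where fewer samples leave less room to overlap, and were 27 centred without cardiomyocyte sample 1 and set B sample 1. Cardiomyocytes minus day 0 gave 8 with the block on the deposited scale (0 to 34 with a sample left out), and on the centred scale 14 with 12 samples and 6 with median centring (0 to 21). Set B minus set A, deposited, gave 15 and 14 with the block from title and description (17 to 36); centred it gave 20 to 35. Features shared gave 11 with 12 samples and 2 with the block (0 to 13) on the deposited scale, and 9 with 12 samples and 5 with median centring (0 to 13) on the centred scale. The difference of differences gave 5 without both samples (1 to 20) on the deposited scale, and 0 to 6 centred. A replicate block moved no other count by over 1.5 times. The pseudocount, the minimum mean and group weights kept each count within 1.5 times. A count test on whole reads was not run, because whole reads could not be established.

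Signs that turned, in cardiomyocytes minus set B: without both samples, Snora47 was 0.27 and Snora73a -0.11 (deposited), and Snora33 -0.36 and Snora62 -0.0085 (centred). Snora21 was 0.067 with median centring and 0.10 with quantile normalization. Leaving out a sample gave, on the deposited scale, -0.79 to 0.026 for Snora33, -0.74 to 0.18 for Snora47 and -0.10 to 0.076 for Snora73a. Centred, it gave -0.017 to 0.23 for Snora16a, -0.16 to 0.092 for Snora21, -0.83 to 0.15 for Snora30, -0.30 to 0.32 for Snora33, -0.45 to 0.67 for Snora47, -0.11 to 0.18 for Snora62, -0.57 to 0.038 for Snora64 and -0.56 to 0.054 for Snora69. Other snoRNAs named as near 0 were not followed singly. With 3 samples a group the spread between samples, not counting, limits the precision.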
